A study of Mus musculus with 8 samples.

Results

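Enteroendocrine lineage factors and granule genes were described in ileal RNA from male KKAy mice, which carry the yellow agouti allele and become obese and diabetic. The 9 genes were chosen by name: the transcription factors Neurog3, Neurod1, Pax4, Pax6 and Isl1, the granins Chga and Chgb, and the enterochromaffin genes Tph1 and Tac1. Of these 9 genes, 8 had 1 probe set each, out of 19505 genes with a symbol on 22206 probe sets, and Neurod1 was not analysed here. The voglibose group held 4 mice that received the alpha-glucosidase inhibitor voglibose at 1 mg/kg by daily gavage for 8 weeks, and the water group held 4 mice gavaged with water in its place. The labels give the mice an age of 14 weeks, and in both groups gavage began after 4 weeks of high-fat feeding (45% of energy as fat). A lean or untreated group was not analysed here, and both groups carry the same strain background and diet. RNA came from about 4 cm of ileum per mouse and was read on 1 Affymetrix array per mouse. Values are log2 signals, so a difference of 1 is a doubling.

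Enteroendocrine cells are scattered hormone-secreting cells of the gut epithelium, and they arise from crypt progenitors that switch on Neurog3. Neurod1, Pax4, Pax6 and Isl1 act after Neurog3 and steer progenitors towards single hormone fates. Mature cells store their products in dense-core granules packed with granins, and the enterochromaffin type makes serotonin, through Tph1, and tachykinins, through Tac1. These cells are a small minority of the ileal wall, so in RNA of a whole piece a lower signal from fewer cells and from less RNA per cell cannot be told apart.

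Promoter windows are shown for the 4 genes whose signal stood clear of background on every array, because the results turn on how these 4 varied from mouse to mouse. Each window runs from 250 bases before to 50 bases after a RefSeq transcript start (GRCm38.p6), and windows were found for 8 of the 9 genes, Pax4 being the exception. Capitals mark the cAMP response element TGACGTCA, its variant TGACGTAA, the E-box CANNTG that bHLH factors such as Neurog3 and Neurod1 bind, and the TATA box TATAAA, searched on both strands.
Chga, chr12:102554691-102554990, plus strand: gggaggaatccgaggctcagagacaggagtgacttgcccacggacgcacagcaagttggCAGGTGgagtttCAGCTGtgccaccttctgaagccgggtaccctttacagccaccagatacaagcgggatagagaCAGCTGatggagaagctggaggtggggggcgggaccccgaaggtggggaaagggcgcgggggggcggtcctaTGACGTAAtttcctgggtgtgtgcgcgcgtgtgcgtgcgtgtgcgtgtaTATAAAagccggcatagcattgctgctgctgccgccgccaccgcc
Chgb, chr2:132781392-132781691, plus strand: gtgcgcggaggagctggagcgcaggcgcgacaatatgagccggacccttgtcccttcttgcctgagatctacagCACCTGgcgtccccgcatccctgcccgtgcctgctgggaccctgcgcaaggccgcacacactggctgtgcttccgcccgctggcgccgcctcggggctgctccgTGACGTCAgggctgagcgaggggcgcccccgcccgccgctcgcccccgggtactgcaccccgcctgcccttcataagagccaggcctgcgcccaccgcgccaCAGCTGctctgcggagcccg
Tph1, chr7:46667328-46667627, minus strand: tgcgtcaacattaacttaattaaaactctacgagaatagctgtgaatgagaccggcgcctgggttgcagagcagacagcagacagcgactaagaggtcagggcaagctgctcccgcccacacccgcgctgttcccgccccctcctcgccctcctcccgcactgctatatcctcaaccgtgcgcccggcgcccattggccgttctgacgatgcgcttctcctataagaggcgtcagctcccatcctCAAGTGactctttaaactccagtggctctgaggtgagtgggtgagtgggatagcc
Tac1, chr6:7554811-7555110, plus strand: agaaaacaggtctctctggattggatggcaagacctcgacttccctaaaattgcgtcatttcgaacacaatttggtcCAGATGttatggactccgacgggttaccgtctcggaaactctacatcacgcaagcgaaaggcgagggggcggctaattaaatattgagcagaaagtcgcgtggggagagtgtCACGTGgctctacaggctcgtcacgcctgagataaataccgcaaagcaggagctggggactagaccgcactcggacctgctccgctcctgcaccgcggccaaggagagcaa
The granin windows each held a match to a form of the cAMP response element, TGACGTCA at position -72 in Chgb and TGACGTAA at position -44 in Chga, counted from the transcript start to the first base of the match. TGACGTCA was present in 1.79% and TGACGTAA in 0.499% of the 32851 windows of that length. E-boxes numbered 3 in the Chga window, 2 in Chgb, 2 in Tac1 and 1 in this Tph1 window, and 72.3% of all windows held at least 1. The letters of the TATA box were found in the Chga window alone among these 4 (13.6% of all windows). That match began at position 6, after the annotated transcript start and not before it. A second Tph1 start had a window, chr7:46672488-46672787, with no match to any of these motifs. Among the other genes, a window of Pax6 also held TGACGTCA, at position -76. A match describes the letters of the window and not binding.

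The pieces differed in how ileal they were, and 3 mice stood apart. The epithelial genes Vil1 and Epcam were bright on every array, at 15.30 to 15.82 and 16.99 to 17.44. Fabp6, the bile acid binding protein of the distal ileum, ran over a wide range: 8.14, 3.54, 10.78 and 11.68 in voglibose mice 1 to 4, against 8.51, 17.50, 14.11 and 4.01 in water mice 1 to 4. Voglibose mouse 2 and water mouse 4 were lowest on it, below the background level of their arrays. Onecut2, a factor of the proximal intestine, was highest in those mice (6.12 and 6.94), as were the proximal markers Gata4, Slc40a1, Fabp1 and Rbp2. The proximal markers Lct, Cybrd1 and Slc5a4b were not, and Cybrd1 was lowest in water mouse 4 (5.66). Water mouse 2 had the highest mean of the distal list (2.48, against -1.69 to 0.95 in the other 7 mice) and of the smooth muscle list (1.52, against -1.44 to 0.74), where a list mean is the average of its genes after each is centred on its own mean over the 8 arrays. In the distal list, Fabp6, Slc10a2, Slc51a, Slc51b, Fgf15 and Nr1h4 were highest in water mouse 2. Its other genes were not: Cubn was highest in voglibose mouse 4 (16.48), Osr2 in voglibose mouse 1 (12.58) and Hoxa10 in voglibose mouse 2 (4.58). Hoxa10 lay below the background level on every array. Voglibose mouse 2 also held acinar pancreas RNA, with Amy2a5 at 14.09 against 4.41 to 5.32 in the other mice. The islet genes Ins2, Ppy and G6pc2 lay within the range of the other mice there, at 4.99, 3.87 and 4.11. These genes were not above the background level in any mouse, so they cannot show whether islet RNA was present. Array medians lay between 5.89 and 5.94, and the number of arrays limits the precision.

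None of the 8 genes passed the test between voglibose and water mice. Of the 8, 3 were higher and 5 lower in voglibose mice, with a median log2 difference of -0.10 beside -0.005 over all probe sets. Differences ran from -0.37 for Tph1 to 0.22 for Chga, and adjusted p ran from 0.771 to 0.980 (limma, Benjamini-Hochberg over all 22206 probe sets). At that threshold 0 of the 8 genes and 0 probe sets of the array passed (0.00%), and an unmoderated linear model also gave 0. With unadjusted p below 0.05 and a fold change over 1.2, 0 of the 8 genes stood beside 7.52% of all probe sets (1671). The groups overlapped in all 8 genes, where 4.35% of probe sets had groups that did not overlap.

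**Figure D1:**
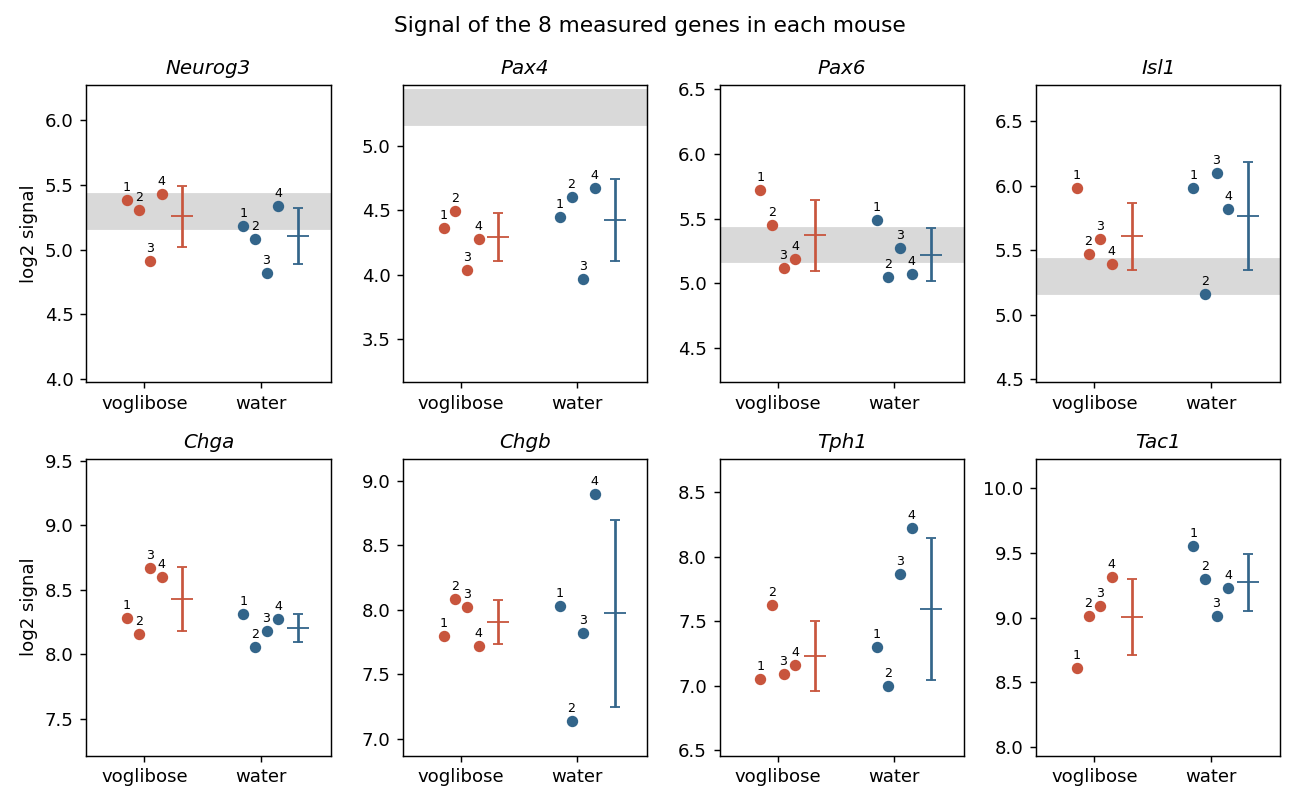
Log2 signal (vertical axis, of the same span in each panel) of the 8 genes in the 4 voglibose mice (left, red) and the 4 water mice (right, blue), numbered by mouse, with mean and SD beside the points. The grey band is the range over arrays of the 95th percentile of olfactory and vomeronasal receptor probe sets, 5.16 to 5.43, above which Chga, Chgb, Tph1 and Tac1 lie in every mouse and below which Pax4 lies in every mouse.

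The 4 lineage factors were dim. The files hold no detection calls, so the 1414 probe sets of olfactory and vomeronasal receptors, genes of the olfactory organs, served as a measure of background. Neurog3, the factor that commits a crypt cell to the endocrine fate, had 5.38, 5.31, 4.91 and 5.43 in voglibose mice, against 5.18, 5.08, 4.82 and 5.34 in water mice. It lay above the 95th percentile of the receptors in 1 voglibose and 1 water mouse, and mouse 3 was lowest in either group. The difference was 0.15 ± 0.17 (SE; 95% interval -0.22 to 0.52). Leaving out 1 mouse at a time moved it between 0.06 (without water mouse 3) and 0.27 (without voglibose mouse 3).

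Pax4, which favours serotonin and somatostatin cells, had 4.36, 4.49, 4.04 and 4.28 in voglibose mice, against 4.45, 4.60, 3.97 and 4.67 in water mice. All 8 values lay below the 95th percentile of the receptors, so the difference of -0.13 ± 0.18 (SE) is between background signals. It lay between -0.28 (without water mouse 3) and -0.05 (without voglibose mouse 3) when 1 mouse was left out. Pax6, which activates the proglucagon gene, had 5.72, 5.45, 5.12 and 5.19 in voglibose mice, against 5.49, 5.05, 5.27 and 5.07 in water mice. It passed the receptor level in 2 voglibose mice and 1 water mouse, and its difference of 0.15 ± 0.17 was 0.03 without voglibose mouse 1, the highest of the 8, and 0.24 without water mouse 1.

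Isl1, a LIM homeodomain factor of several hormone cell types and of neurons, had 5.98, 5.47, 5.59 and 5.39 in voglibose mice, against 5.98, 5.16, 6.10 and 5.82 in water mice. It stood above the receptor level in 4 voglibose and 3 water mice, with water mouse 2 as the exception. The difference was -0.16 ± 0.22 (SE; 95% interval -0.64 to 0.32). Leaving out water mouse 2 gave -0.36, and leaving out water mouse 3 gave -0.05. A dim signal of this kind understates any difference in transcript level.

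The granins differed from each other in spread. Chga, the acidic granule protein used as a general marker of endocrine cells, had 8.28, 8.16, 8.67 and 8.60 in voglibose mice, against 8.31, 8.06, 8.18 and 8.27 in water mice. Voglibose mice 3 and 4 lay above every other mouse, and voglibose mice 1 and 2 lay among the water mice. Means were 8.43 ± 0.25 in voglibose mice and 8.21 ± 0.11 in water mice (SD, n = 4 each). The difference was 0.22 (95% interval -0.12 to 0.57), or a 1.17-fold level with an interval from 0.919 to 1.48. The difference was 0.14 without voglibose mouse 3.

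Chgb, the related granin that helps to form secretory granules, had 7.80, 8.08, 8.02 and 7.72 in voglibose mice, against 8.03, 7.14, 7.82 and 8.90 in water mice. Water mice held both extremes of the 8, mouse 4 at the top and mouse 2 at the bottom. The SD was 0.17 in voglibose mice and 0.73 in water mice, and the residual SD of 0.53 exceeded that of 94.6% of all probe sets, where that of Chga exceeded 24.3%. The difference of -0.07 ± 0.30 (SE) had no stable sign, since leaving out water mouse 2 gave -0.35 and leaving out water mouse 4 gave 0.24. With the mean of the distal list as a covariate it was -0.29 ± 0.19.

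Tph1 and Tac1 were the 2 genes with the lowest differences. Tph1, the rate-limiting enzyme of serotonin synthesis outside the nervous system, had 7.05, 7.63, 7.09 and 7.16 in voglibose mice, against 7.30, 7.00, 7.87 and 8.22 in water mice. Voglibose mice 1, 3 and 4 lay close together below water mice 1, 3 and 4, while voglibose mouse 2 and water mouse 2 lay on the other group's side. Means were 7.23 ± 0.27 in voglibose mice and 7.60 ± 0.55 in water mice (SD, n = 4 each), and the difference was -0.37 (95% interval -0.93 to 0.20). On the linear scale this was a 0.776-fold level with an interval from 0.526 to 1.15.

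The size of the Tph1 difference rested on single mice. Leaving out water mouse 4 gave -0.16 and leaving out water mouse 2 gave -0.56. It was -0.29 ± 0.23 (SE) without voglibose mouse 2 and water mouse 4, the mice lowest on Fabp6, and the groups still overlapped, where 10.5% of all probe sets had groups that did not. Without mouse 2 of both groups it was -0.70 ± 0.23. That choice was made after seeing the data, and it takes out the mice that lay on the other group's side, so the separation of the remaining mice follows from it. In that refit 13.3% of all probe sets had groups that did not overlap. With the mean of the distal list as a covariate it was -0.52 ± 0.20. Tph1 was the 1 of the 8 genes with unadjusted p below 0.05 and a fold over 1.2 with that covariate (8.92% of all probe sets), without water mouse 2 (8.24%) and without mouse 2 of both groups (7.88%), a share of the 8 near that of the array. None of these passed over all probe sets, and the adjusted p over all alternatives ran from 0.541 to 0.994 (limma; the smallest is that with the distal covariate).

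Tac1, the precursor of substance P and neurokinin A, had 8.61, 9.01, 9.09 and 9.31 in voglibose mice, against 9.55, 9.30, 9.01 and 9.23 in water mice. Voglibose mouse 1 was the lowest of the 8 and water mouse 1 the highest. Means were 9.01 ± 0.29 in voglibose mice and 9.27 ± 0.22 in water mice (SD, n = 4 each), and the difference was -0.27 (95% interval -0.67 to 0.13). It was -0.14 without voglibose mouse 1 and -0.18 without water mouse 1.

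Other cells of the gut wall also use these genes. Enteric neurons express Tac1, and of 17 measured neuron markers 6 lay above the receptor level on all arrays and 5 on none. Their summed signal (log2 of the summed linear signals) ran from 9.85 to 10.27 in voglibose mice, against 10.10 to 10.72 in water mice, and Elavl4 was above the receptor level in all 8 mice. The sum leans on the brightest marker, Vip, at 7.80 to 8.72 in voglibose mice and 8.73 to 9.46 in water mice. By count, 10 of the 17 markers were higher and 7 lower in voglibose mice, with a median difference of 0.04. Over the 8 mice the neuron list mean had r = 0.456 with Tac1 (exact permutation p = 0.263; rho = 0.539, exact permutation p = 0.175). With Isl1, which neurons also express, it had r = -0.777 (exact permutation p = 0.0218, adjusted p = 0.183 over 24 relations), or -0.546 without voglibose mouse 3 and water mouse 2. Its rho with Isl1 was -0.635 (exact permutation p = 0.0999). The part of neurons in the differences was not tested. Mast cells express Tph1. Of 12 mast cell markers, 9 lay above the receptor level on no array and 1, Kit, on all. The protease gene Mcpt2 was above it in 0 mice, and Mcpt1 in 1 voglibose and 1 water mouse. Cpa3 was above it in 2 voglibose and 4 water mice. The summed signal of the 12 markers ran from 8.21 to 8.31 in voglibose mice, against 8.27 to 8.45 in water mice. Kit was the brightest of them in every mouse (6.38 to 7.25), and the sum includes the background signal of the 9. Like the smooth muscle list, Kit was highest in water mouse 2 and lowest in water mouse 4. Whether its signal came from mast cells was not tested. The mast cell list mean had r = 0.535 with Tph1 (exact permutation p = 0.175; rho = 0.333, exact permutation p = 0.428), or 0.009 without voglibose mouse 3 and water mouse 4.

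**Figure D2:**
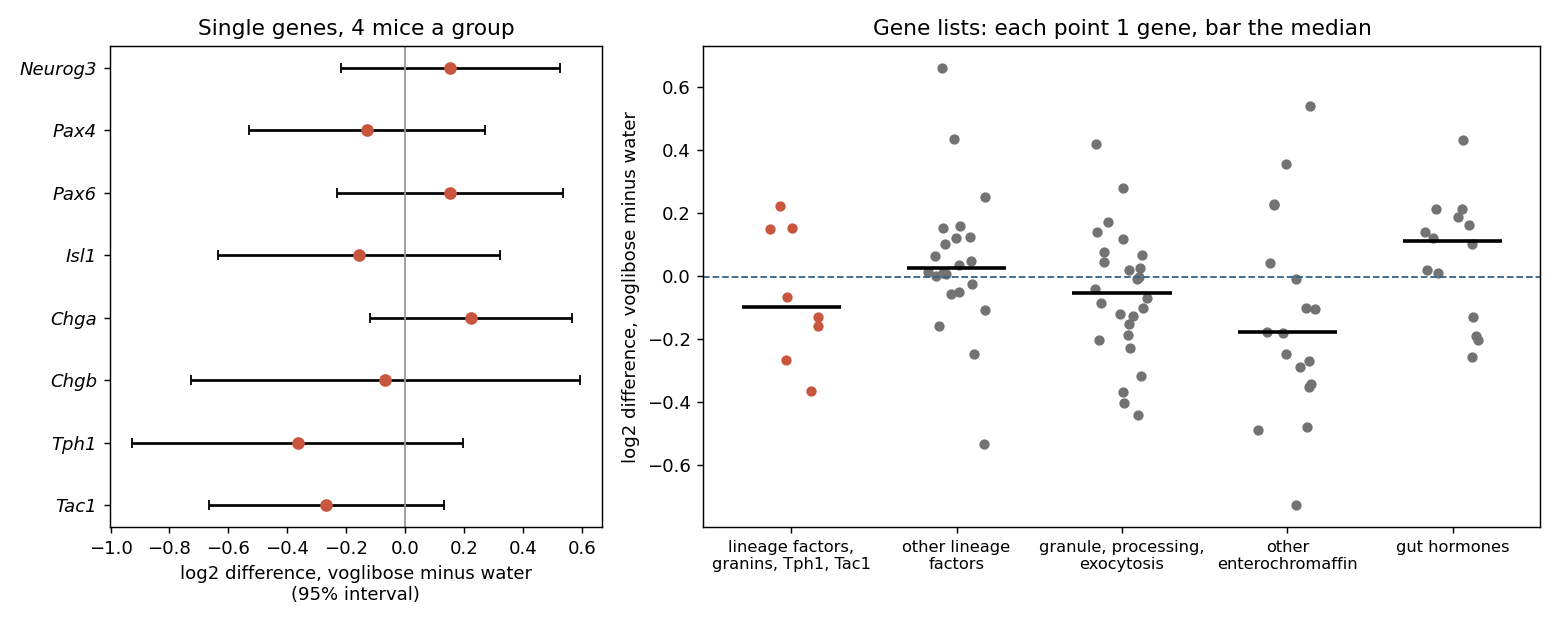
Left, log2 difference (voglibose minus water) of each gene with its 95% interval (4 mice a group). All 8 intervals include 0. Right, the same difference for the 8 genes (red) and for the members of 4 further lists (grey), with black bars at list medians and a dashed line at the median of all probe sets. The list of other enterochromaffin genes has the lowest median, -0.18.

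Further genes of the endocrine programme were read from 4 lists, and 0 of their measured members passed over all probe sets (limma, Benjamini-Hochberg). Among the other lineage factors, 14 of 22 measured members were higher and 8 lower in voglibose mice, with a median difference of 0.02. The receptor level was passed on all arrays by 11 of the 22 and on none by 10, so part of these differences is between background signals. At an unadjusted p under 0.05, 1 was higher and 1 lower, where 3.08% of all probe sets were higher and 4.44% lower. The higher one was Lmx1a, a homeodomain factor of enterochromaffin cells that drives Tph1 expression in mice. It had 6.36, 6.60, 6.92 and 6.30 in voglibose mice, against 6.19, 6.18, 5.44 and 5.73 in water mice. The groups did not overlap, and the difference was 0.66 ± 0.21 (SE; adjusted p = 0.652, limma), opposite in sign to that of Tph1.

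Tox3 was the lower one, at -0.54 ± 0.19. Rfx6, a winged-helix factor that acts downstream of Neurog3, differed by 0.44 ± 0.20 without overlap, and by 0.23 without water mouse 2. Lmx1a and Rfx6 were the 2 of the 22 measured members whose groups did not overlap, beside 4.35% of all probe sets. Insm1, a zinc-finger factor of endocrine progenitors, lay below the receptor level in all 8 mice and differed by -0.25 ± 0.13. Lineage factors thus gave values in both directions, none past the threshold.

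Genes of granule formation, prohormone processing and exocytosis numbered 26 measured members, 10 higher and 16 lower in voglibose mice, with a median difference of -0.06. The receptor level was passed on all arrays by 12 of the 26 and on none by 5. At an unadjusted p under 0.05, 1 was higher and 1 lower, beside 3.08% of all probe sets higher and 4.44% lower. Ptprn, a membrane protein of dense-core granules, differed by 0.42 ± 0.17 (SE), close to background, since it lay above the receptor level in 4 voglibose and 2 water mice. Scgn, the calcium sensor secretagogin of endocrine cells, differed by -0.44 ± 0.19. In the vesicle release machinery, the GTPase Rab3a had a difference of 0.28 ± 0.13 and the SNARE Snap25 of -0.32 ± 0.16, both without overlap of the groups. They were the 2 of the 26 members whose groups did not overlap, beside 4.35% of all probe sets. Snap25 was near the receptor level and lay above it in 2 voglibose and 4 water mice, and its difference was -0.20 without voglibose mouse 1.

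The other enterochromaffin genes numbered 18 measured members, 5 higher and 13 lower in voglibose mice, with a median difference of -0.18. The receptor level was passed on all arrays by 10 of the 18 and on none by 4. At an unadjusted p under 0.05, 1 was higher and 3 lower, beside 3.08% of all probe sets higher and 4.44% lower. Maoa, which degrades serotonin, differed by -0.49 ± 0.17, and Gch1, which starts the synthesis of the cofactor that Tph1 needs, by -0.35 ± 0.16 (SE). Trpm2, a cation channel, differed by -0.48 ± 0.22 but was above the receptor level in 0 voglibose mice and 1 water mouse, and it differed by -0.31 without voglibose mouse 2. Slc18a1, the vesicular monoamine transporter that loads serotonin into granules, had the opposite sign at 0.54 ± 0.24, with 0.36 without voglibose mouse 2 and 0.18 without mouse 2 of both groups. Maoa and Gch1 are expressed well beyond enterochromaffin cells.

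Hormone genes numbered 14 measured members, 10 higher and 4 lower in voglibose mice, with a median difference of 0.11. Over the array, 10809 probe sets were higher and 11293 lower. At an unadjusted p under 0.05 there were 0 of the 14, beside 7.52% of all probe sets. The receptor level was passed on all arrays by 8 of the 14 and on none by 5, so part of that split is between background signals. Cck, a satiety hormone of the upper gut, had the smallest p of the list and differed by 0.43 ± 0.28 (0.21 without water mouse 2, 0.25 without voglibose mouse 2, 0.67 without water mouse 4 and 0.02 without mouse 2 of both groups). Iapp, Gast and Insl5, the next by p, lay below the receptor level in all 8 mice and differed by -0.26 ± 0.22, 0.21 ± 0.25 and 0.16 ± 0.18. With 1 mouse left out, Iapp was -0.07 at its smallest (water mouse 2 left out) and -0.40 at its largest (voglibose mouse 4 left out). Gast lay between 0.01 (voglibose mouse 3 left out) and 0.35 (voglibose mouse 1 left out), and Insl5 between 0.06 (voglibose mouse 2 left out) and 0.30 (water mouse 1 left out).

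Tph1 varied from mouse to mouse together with Ddc, the enzyme that converts the product of Tph1 into serotonin. Ddc had 11.67, 12.70, 11.77 and 11.85 in voglibose mice, against 11.86, 11.30, 12.87 and 13.04 in water mice. The 8 mice came in the same order on both genes, with water mouse 2 lowest and water mouse 4 highest. Pearson's r was 0.961 (exact permutation p = 2.48e-05, the smallest that 40320 pairings can give) and Spearman's rho was 1.00 (exact permutation p = 4.96e-05).

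This relation was looked at after the values were seen, as 1 of 18 between Tph1 and the other enterochromaffin genes. Adjusted over the 18, p was 0.000446 for r and 0.000893 for rho, and r was 0.954 without water mice 3 and 4, the mice farthest from the median of Tph1. It was 0.984 after values were centred on their group means, and between 0.954 and 0.973 when each mouse was left out in turn. The other 17 relations had adjusted p of 0.491 or more for r. Of 9704 named genes above the median signal, 6 (0.0620%) were more alike to Tph1 than Ddc was, led by Nadk2 and Tiprl at 0.969 each. Ddc is also made by absorptive cells of the gut. Its r was 0.780 with the proximal small intestine list (0.678 without voglibose mouse 2 and water mouse 2) and -0.821 with the smooth muscle list (-0.574 without water mice 2 and 4), with exact permutation p = 0.0171 and 0.00501 and rho of 0.810 and -0.857 (exact permutation p = 0.0218 and 0.0107). With the distal list the r of Ddc was -0.603 (exact permutation p = 0.118), or -0.072 without water mice 2 and 4. Its rho there was -0.476 (exact permutation p = 0.243). The p of these list relations of Ddc is unadjusted. The part of region and muscle in the relation of Tph1 and Ddc was not tested. Ddc differed between voglibose and water mice by -0.27 ± 0.37 (SE; 95% interval -1.09 to 0.55).

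**Figure D3:**
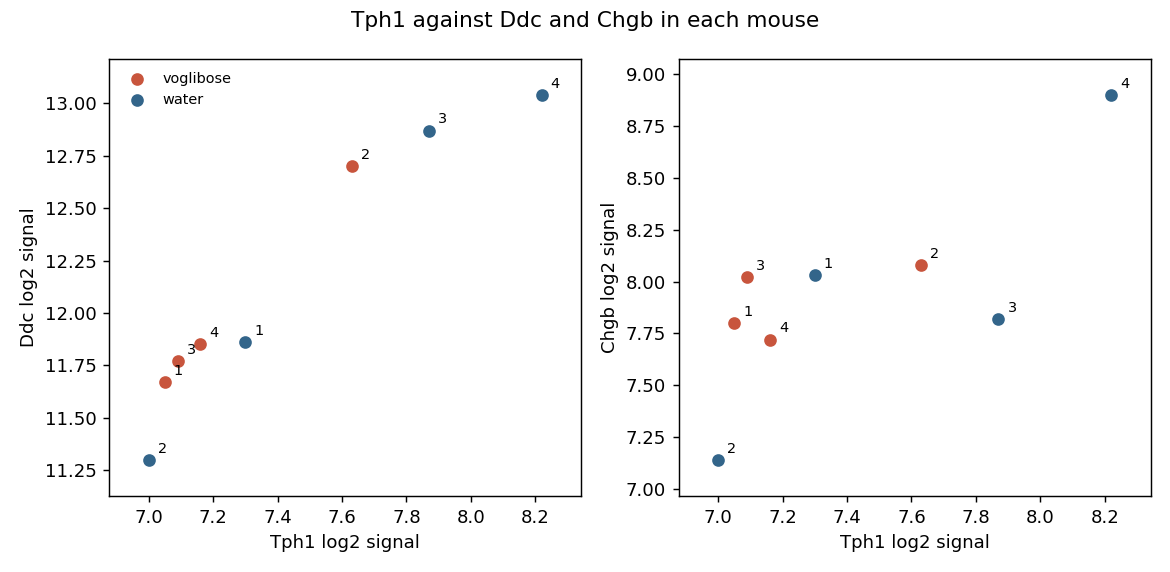
Log2 signal of Ddc (left) and Chgb (right) against that of Tph1 in the 4 voglibose mice (red) and the 4 water mice (blue), numbered by mouse. On the left the 8 mice rise in 1 order on both axes (r = 0.961), and on the right water mouse 4 is highest on both axes (r = 0.754).

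Pairs among the 8 genes showed weaker relations. Of 28 pairs, 15 had a positive r, and 0 passed after adjustment over the pairs (smallest adjusted p = 0.620, exact permutation test), with 1 at an unadjusted p under 0.05. That pair was Chgb and Tph1, with r = 0.754 (exact permutation p = 0.0221) and rho = 0.762 (exact permutation p = 0.0368, adjusted p = 0.977). Its size turned on the mice at the ends: r was 0.143 without water mice 2 and 4, the farthest on Chgb, and 0.620 without water mice 3 and 4, the farthest on Tph1. With 1 mouse left out it ran from 0.420 (without water mouse 4) to 0.876 (without water mouse 3). Chga and Chgb, the 2 granins, had r = 0.172 (exact permutation p = 0.663), and Chga and Tph1 had r = -0.301 (exact permutation p = 0.479). Neurog3 and Pax4 had r = 0.629 (exact permutation p = 0.0992), which turned to -0.534 without mouse 3 of each group, and both lay near or below the receptor level.

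**Figure D4:**
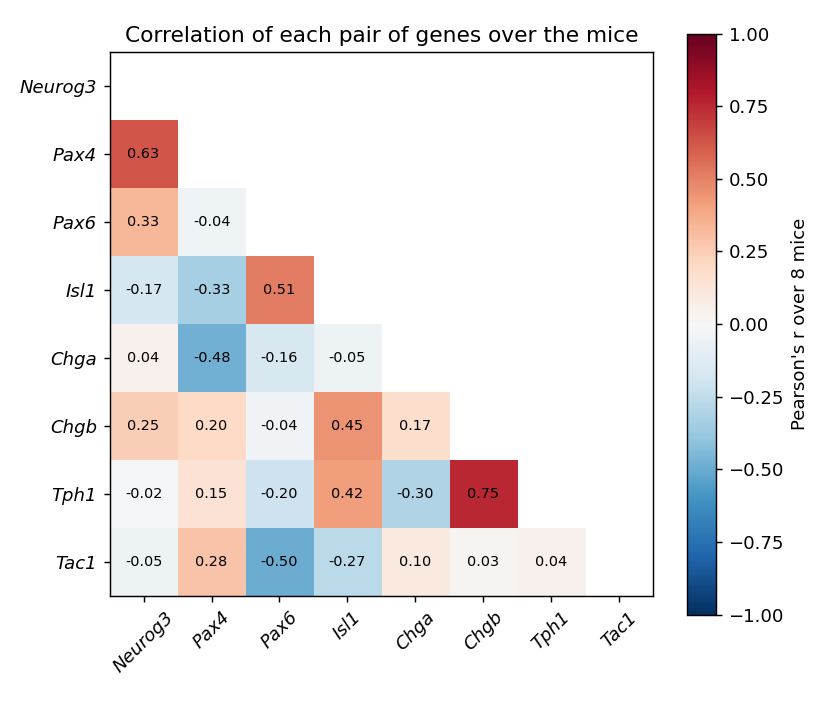
Pearson's r over the 8 mice for each of the 28 pairs of genes, from blue (-1) to red (1). The highest is that of Chgb and Tph1 (0.75), the lowest that of Pax6 and Tac1 (-0.50), and 0 of the 28 pass after adjustment.

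Chgb was low where the mean of the distal list was high. Its r with the mean of the distal list was -0.838 (exact permutation p = 0.0129) and its rho -0.810 (exact permutation p = 0.0218), and r was -0.583 without water mice 2 and 4. With the proximal list r was 0.753 (exact permutation p = 0.0463), rho was 0.833 (exact permutation p = 0.0154), and r was 0.672 without voglibose mouse 2 and water mouse 2. After adjustment over the 16 relations of 8 genes with 2 lists, 0 passed, at p = 0.206 and 0.352 for r and 0.116 for each rho. For the distal list this call turned on the processing. Adjusted p was 0.0381 after a further quantile normalization (r = -0.896, exact permutation). It was 0.0480 after values were centred on their group means (r = -0.892, permutation over all pairings). The p of the centred values is approximate, because the pairings were not kept within groups.

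Tph1 had r = 0.676 (exact permutation p = 0.0660) and rho = 0.810 (exact permutation p = 0.0218) with the proximal list, and r = 0.766 without voglibose mouse 2 and water mouse 2. With the distal list its r was -0.535 (exact permutation p = 0.174), and 0.013 without water mice 2 and 4. For Chga the r with the distal list was -0.066 (exact permutation p = 0.878), but 0.454 without water mice 2 and 4. With the proximal list it was -0.078 (exact permutation p = 0.858), but -0.814 without mouse 2 of both groups. With smooth muscle it was 0.050 (exact permutation p = 0.895), but 0.886 without water mice 2 and 4. Its near-zero values thus rest on those mice. For Tac1 the r with the distal list was 0.200 (exact permutation p = 0.644), or 0.178 without water mice 2 and 4. The distal means overlapped between groups, from -1.67 to 0.50 in voglibose mice and from -1.69 to 2.48 in water mice.

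Smooth muscle markers were, like the distal list, highest in water mouse 2 and lowest in water mouse 4, and the part of either in these relations was not tested. All 8 muscle markers lay above the receptor level on all arrays, and their summed signal ran from 15.48 to 16.55 in voglibose mice, against 14.28 to 17.40 in water mice. With the muscle list Chgb had r = -0.852 (exact permutation p = 0.0228) and Tph1 r = -0.812 (exact permutation p = 0.00965), each with an adjusted p of 0.183 over 24 relations chosen after seeing the data. The rank correlation (Spearman) was -0.667 for Chgb (exact permutation p = 0.0831) and -0.857 for Tph1 (exact permutation p = 0.0107). Without water mice 2 and 4, r was 0.248 for Chgb and -0.597 for Tph1. With the muscle mean as a covariate the voglibose minus water difference was -0.31 ± 0.17 for Tph1 and -0.003 ± 0.19 for Chgb (SE).

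**Figure D5:**
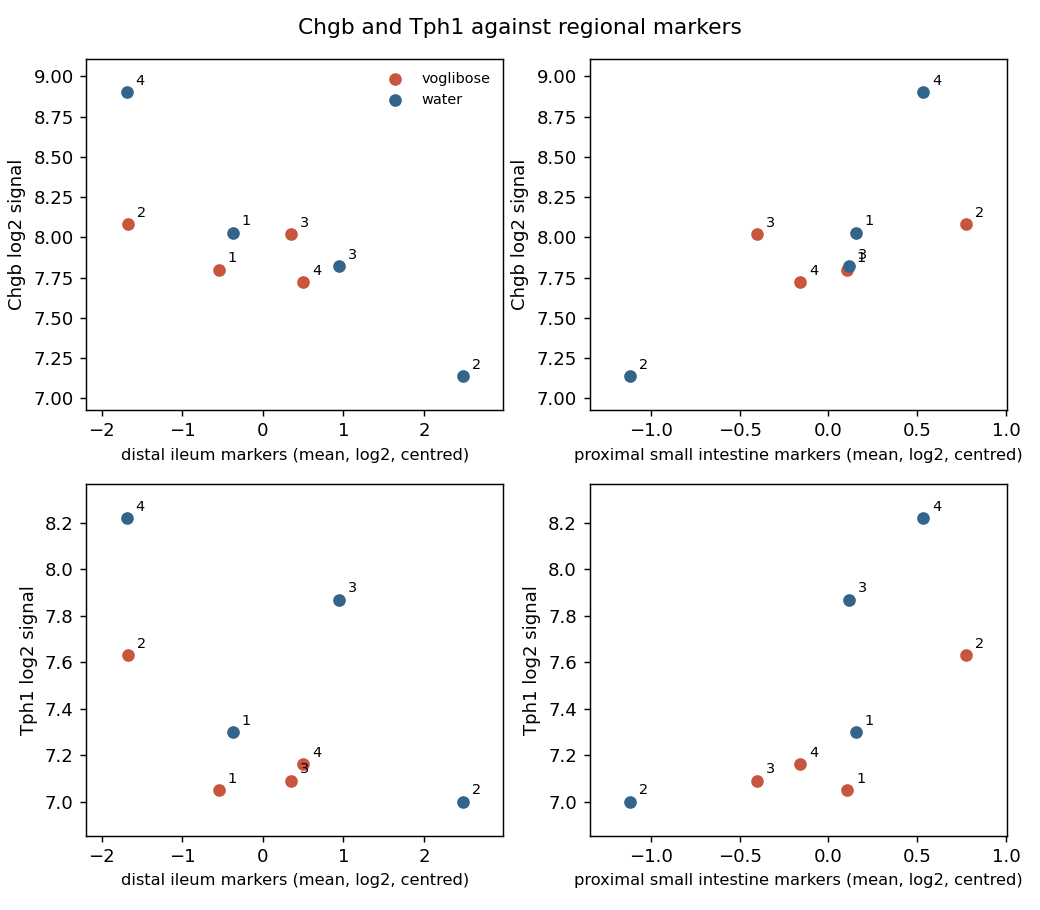
Log2 signal of Chgb (top) and Tph1 (bottom) against the mean of distal ileum markers (left) and of proximal small intestine markers (right) in the 4 voglibose mice (red) and the 4 water mice (blue), numbered by mouse. Water mouse 2 lies at the distal end with the lowest Chgb (7.14) and Tph1 (7.00), and water mouse 4 near the other end with the highest (8.90 and 8.22).

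Genes with the pattern most like each gene over the 8 mice were taken from 9704 named genes above the median signal, by Pearson's r, as a description with no test. The closest were Derl1 and Ptcd2 for Chgb (r = 0.974 and 0.955), Exo5 and Tmem39a for Chga (0.952 and 0.949), and Tcf19 and Rraga for Tac1 (0.962 and 0.953). For the dim factors they were Zar1l and Sox1 for Neurog3 (0.958 and 0.945), Mrps18a and Vstm4 for Pax4 (0.977 and 0.940), Aoc2 and Tmem104 for Pax6 (0.983 and 0.980), and Dyrk1b and Lmf1 for Isl1 (0.969 and 0.946). With 8 mice and this many candidates, r of this height was reached for each of the 8 genes. By this measure 553 candidates (5.70%) were more alike to Chgb than Tph1 was.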

How the data were processed

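Expression in 8 ileum samples, 4 from voglibose and 4 from water mice, was taken from the log2 signals per probe set that the authors deposited. Per the submitters' processing notes, the tools named are RMA and Transcriptome Analysis Console (versions not given in the sources used here). The log2 scale was read from the deposited values (2.09 to 19.55, nearly equal array medians). Normalization across arrays hides a change in total RNA. The labels give no batch, and 4 mice per group without saying that replicate numbers pair them.

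Groups were compared over all 22206 probe sets by limma's lmFit and eBayes (limma 3.58.1, R 4.3.3, 2-sided, Benjamini-Hochberg, threshold 0.05), with no filter. Differences are voglibose minus water with moderated SE. Genes were named from the platform annotation (19572 probe sets with 1 symbol, 2634 with none), and all symbols matched a RefSeq table. Where a gene had several probe sets, that with the highest mean was used, which applied to 0 of the 8 genes. Correlations over mice were tested by exact permutation of pairings. Since Neurod1 was not analysed here, the 8 genes gave 28 pairs. On simulated data of 22206 probe sets with the spread of these arrays, the test recovered 3.80% of probe sets changed 1.41-fold and 50.8% of those changed 2-fold at an adjusted p of 0.05. The noise was normal and independent between probe sets, and only probe sets above the median signal were changed. Neurog3, Pax4, Pax6 and Isl1 lie below that median, so these shares do not cover them.

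The 9 genes, the lists, the tests and the alternatives were chosen with earlier results of these data known. Named are all 8 measured genes, up to 4 genes with the smallest p in each of 4 further lists, the 2 genes most alike to each of the 8, and markers of the tissue, of mast cells and of neurons. Ddc, Kit, Onecut2, Amy2a5, Ins2, Ppy and G6pc2 were named after their values were seen. So were the proximal markers Gata4, Slc40a1, Fabp1, Rbp2, Lct, Cybrd1 and Slc5a4b, the distal markers other than Fabp6, and the neuron marker Vip. Figures used matplotlib 3.10.9.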

Additional observations from a re-analysis of the deposited data

Results flagged for a closer look

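In 48 groups of 4 mice (24 genes, voglibose and water), 2 held a mouse whose gap to its nearest neighbour exceeded Dixon's critical share of the range of the group, where chance gives about 5% of groups. Cck was 8.92 in voglibose mouse 2 and 8.12 to 8.25 in the other voglibose mice. Rfx6 was 6.24 in water mouse 2 and 7.02 to 7.17 in the other water mice.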

How the results depend on the processing

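No alternative brought any of the 8 genes, or any of the 16 further genes named, past the threshold over all probe sets. The sign of the difference was kept in all 20 refits except for Chgb. Iapp, Insl5 and Gast had 19 refits, since a filter on dim probe sets removed them. For these genes some refits could not change the difference itself, so their kept sign was fixed in advance. They were the filter, the mean-variance trend, the unmoderated model, the permutation test, the replicate block and the lowest probe set. The Chgb difference (-0.07) was 0.01 after a further quantile normalization and 0.18 without voglibose mouse 2 and water mouse 4, and it ran from -0.35 to 0.24 when each mouse was left out in turn. The count of the 8 genes at an unadjusted p under 0.05 and a fold over 1.2 (0) became 1, Tph1, with the distal list as a covariate (8.92% of all probe sets) and without voglibose mouse 2 and water mouse 2 (7.88%). It ran from 0 to 1 when each mouse was left out (1, Tph1, without water mouse 2, beside 8.24% of all probe sets). Without mouse 2 of both groups, 1 of the 8 genes (Tph1) had groups that did not overlap, beside 13.3% of all probe sets. The count of genes with a regional relation past adjustment (0) was 1, Chgb, after a further quantile normalization and after values were centred on their group means, where p is approximate. The count of probe sets with unadjusted p below 0.05 and a fold over 1.2 (1671) became 846 with the exact permutation test and 969 without voglibose mouse 1. The permutation test has 70 arrangements of the mice and gives no p below 0.0286. It could therefore hardly bring any gene past the threshold over all probe sets. The labels do not say whether the replicate numbers pair the mice, and the correlation of deviations from the group means cannot decide it. It was 0.015, -0.324, 0.014 and -0.184 for numbers 1 to 4. For voglibose mouse 2 and water mouse 4, which differ in number, it was 0.40. With the replicate block, 0 probe sets and 0 of the 8 genes passed, and 1529 probe sets met that rule. Dim signals limit Neurog3, Pax4, Pax6 and Isl1, of which 0 stayed above the 99th percentile of the receptor probe sets on all arrays.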
